A study of Mus musculus with 4 samples.

Results

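The genes described here are 30 members of the fibroblast growth factor (FGF) pathway, listed by name, out of 21887 mouse protein-coding genes on the assembled chromosomes. They are 12 genes for secreted ligands, 3 for FGFs that stay inside the cell, 5 for receptors and their adaptor, 7 for feedback inhibitors and 3 for ETS transcription factors. All 30 were found in the gene table, and each was read over its gene body plus 50 kb on each side, which is called its locus below. The data are accessible chromatin regions (peaks) from single-nucleus ATAC-seq, an assay that tags DNA with a transposase wherever it is not packed away. Each library pooled nuclei of mouse embryonic stem cells derived from blastocysts, and each peak list was called over all nuclei of its library. The Cdc14ab KO cells lack Cdc14a and Cdc14b, which encode phosphatases that counter cyclin-dependent kinases, and they were collected at day 5 and at day 0. Wild-type (WT) cells were collected at the same days. At day 5 the cells had been kept in N2B27, a neural differentiation medium, with the growth factors EGF and FGF2, so that an FGF ligand was itself part of the treatment. At day 0 they were in medium with LIF, the cytokine that keeps mouse stem cells pluripotent. All groups had been grown on feeder cells, which were removed by plating on gelatin before collection. Each group held 1 library, and the labels give every library as clone 3. A difference between KO and WT can therefore not be told apart from a difference between cell lines, and no comparison below has a replicate check or a test.

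FGF ligands bind receptor tyrosine kinases together with heparan sulfate. The adaptor FRS2 then couples the receptors to RAS and the kinase ERK, which switches on the ETS factors Etv4 and Etv5 and a set of inhibitors (Sprouty, Spred and dual-specificity phosphatase proteins) that feed back on the same route. In mouse embryonic stem cells the ligand FGF4, made by the cells themselves, drives the step out of naive pluripotency, and FGF2 is commonly supplied to neural progenitors in culture.

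The peak lists held 227878 peaks in KO at day 5, 189571 in WT at day 5, 222257 in KO at day 0 and 198860 in WT at day 0. Of these, 692, 588, 719 and 675 peaks, in the same order, lay over the FGF loci. A peak carries a position only, and the read depth is unknown. A missing peak may therefore be closed chromatin, chromatin open in fewer nuclei, or too few reads, and these cannot be told apart. The WT day 5 list was the shortest and stood apart from the others in another way. Only in that library were the starts of the Y-linked genes Ddx3y, Eif2s3y and Uty covered by peaks (792, 915 and 888 bp within 1 kb), against 0 bp for each in the other 3 libraries. The WT day 5 and WT day 0 libraries thus did not match each other at these genes. Over the whole Y chromosome the lists held 14 peaks in KO at day 5, 20 in WT at day 5, 16 in KO at day 0 and 16 in WT at day 0. On the X chromosome they held 6659 in KO at day 5, 4112 in WT at day 5, 5565 in KO at day 0 and 4273 in WT at day 0. Whether the WT libraries come from the same cell line, or whether a library was exchanged, cannot be told from the peak lists. Nor can it be told which of the WT libraries is the odd one. This doubt therefore applies to every value that uses a WT library, at day 0 as at day 5. Among the comparisons below, only day 5 against day 0 in KO uses no WT library, and an exchange with a KO library would affect it too. As a check of the cell type, the starts of 10 of 10 embryonic stem cell genes had a peak in every library, and those of neural progenitor genes had one in 10 of 10 except in WT at day 0 (9 of 10, without Six3). Start peaks therefore did not separate day 5 from day 0. Genes of feeder fibroblasts had a start peak in 10 of 10 at KO day 5, 10 at WT day 5, 9 at KO day 0 (without Lum) and 8 at WT day 0 (without Col3a1 and Lum). Peaks over their loci summed to 131.6 kb in KO at day 5, 127.2 kb in WT at day 5, 133.8 kb in KO at day 0 and 109.1 kb in WT at day 0. Relative to the median protein-coding locus, the covered length of 5 of these 10 loci (Col3a1, Dcn, Lum, Postn and Twist1) was higher by more than 0.5 (log2) in WT at day 5 than in WT at day 0. Over all genes, 12.1% were higher by that much. The part of feeder fibroblasts in the FGF values, or in the peaks at the Y-linked genes, was not tested.

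The DNA just upstream of 4 annotated starts is shown because the results turn on them. At Fgf2 and Fgf7 the peak over the start was missing from some libraries, and at Fgf4 and Dusp6 it was listed in all 4. Each line gives the 250 bases before the start on the plus strand (RefSeq, GRCm38.p6), at chr3:37348403-37348652 for Fgf2, chr2:126034408-126034657 for Fgf7, chr7:144861136-144861385 for Fgf4 and chr10:99262981-99263230 for Dusp6. Capitals mark a GC box (GGGCGG) or a CCAAT box (CCAAT), found on either strand.
Fgf2: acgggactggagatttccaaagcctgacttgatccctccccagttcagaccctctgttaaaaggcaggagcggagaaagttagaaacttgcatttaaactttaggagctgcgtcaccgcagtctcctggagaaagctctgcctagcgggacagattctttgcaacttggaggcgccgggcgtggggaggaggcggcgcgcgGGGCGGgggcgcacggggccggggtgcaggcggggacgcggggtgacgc
Fgf7: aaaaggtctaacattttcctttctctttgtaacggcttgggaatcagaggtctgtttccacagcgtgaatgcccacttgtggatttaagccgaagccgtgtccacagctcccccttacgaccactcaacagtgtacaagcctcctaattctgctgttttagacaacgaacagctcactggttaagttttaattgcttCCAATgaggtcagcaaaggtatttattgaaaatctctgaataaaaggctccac
Fgf4: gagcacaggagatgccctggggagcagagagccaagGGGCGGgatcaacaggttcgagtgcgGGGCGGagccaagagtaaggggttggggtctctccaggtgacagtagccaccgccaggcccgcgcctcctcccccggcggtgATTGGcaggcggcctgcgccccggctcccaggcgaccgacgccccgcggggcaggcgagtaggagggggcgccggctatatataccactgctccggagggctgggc
Dusp6: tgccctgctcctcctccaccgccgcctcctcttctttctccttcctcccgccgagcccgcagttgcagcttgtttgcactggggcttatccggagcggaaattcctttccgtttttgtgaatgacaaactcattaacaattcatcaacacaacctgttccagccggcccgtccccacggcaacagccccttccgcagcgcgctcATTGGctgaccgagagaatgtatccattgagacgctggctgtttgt

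These stretches differed in base composition, with 62.4% G and C in Fgf2, 43.6% in Fgf7, 71.2% in Fgf4 and 56.4% in Dusp6. Fgf7 had the lowest share among the 21 members with an annotated start and Fgf18 the highest (77.2%). The member median was 62.4%, against 55.2% over 17492 genes, and the ratio of observed to expected CpG had a median of 0.69 in the members and 0.54 in all genes. A GC box occurred in 13 of the 21 members (61.9%, against 42.7% of all genes), a CCAAT box in 8 (38.1%, against 36.5%) and an ETS core (CCGGAA) in 2, Fgfr4 and Frs2 (9.52%, against 15.2%). TATAAA and the octamer ATGCAAAT were in none of the 21, and in 12.4 and 1.62% of all genes. Each of the 5 motifs was searched on both strands, and none contains another. A match describes the letters in this window and is not evidence of binding.

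Nearly all FGF pathway genes had open chromatin within 1 kb of their start in every library. A peak lay within 1 kb of the start in 30 of 30 members in KO at day 5 (75.2% of all genes had one), 30 in WT at day 5 (73.4%), 30 in KO at day 0 (74.6%) and 29 in WT at day 0 (73.6%). The exception was Fgf2 in WT at day 0. For 9 members (Dusp4, Etv4, Fgf1, Fgf8, Fgf15, Fgf17, Fgf20, Fgfr1 and Spry4) the tables used here gave no strand, and the end of the gene with more covered bases was taken, which can be its 3′ end. That choice favours finding a start peak, and it was made for 9 of 30 members and for 4395 of 21887 genes. Of the members, Fgf2 alone had a start peak in KO and not in WT at day 0, as did 2.2% of all genes, and none had the converse (1.27% of all genes). No member differed between KO and WT at day 5 in this way, where 3.33% of all genes had a start peak in KO only and 1.54% in WT only. Fgf2 alone had a start peak at day 5 and not at day 0 in WT, as did 2.44% of all genes, and none had the converse (2.72%). Between day 5 and day 0 in KO no member differed, where 2.49% of all genes had a start peak at day 5 only and 1.9% at day 0 only. These counts take any covered base, and at day 5 the Fgf7 start was counted through 23 bp in KO and 77 bp in WT at the edge of an upstream peak. With a window of 500 bp, or with at least 250 bp required, Fgf7 had no start peak at day 5 in either genotype and one at day 0 in both.

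Peaks covered a larger share of the FGF loci than of the median gene's locus. The median member locus was covered over 16.3% of its length in KO at day 5, 13.2% in WT at day 5, 16.9% in KO at day 0 and 15.7% in WT at day 0. The median protein-coding locus was covered over 12.8, 10.1, 13.3 and 12.0% in the same order. Among members the share ran from about 3% at Fgf12 and Fgf14, very long genes for FGFs that act inside neurons on sodium channels, to 25.7% at Fgf4 in KO at day 5 and 27.5% at Spry4 in KO at day 0. The other members lay between these, with Fgf7 and Fgf10 at most 6.96% in any library.

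**Figure D1:**
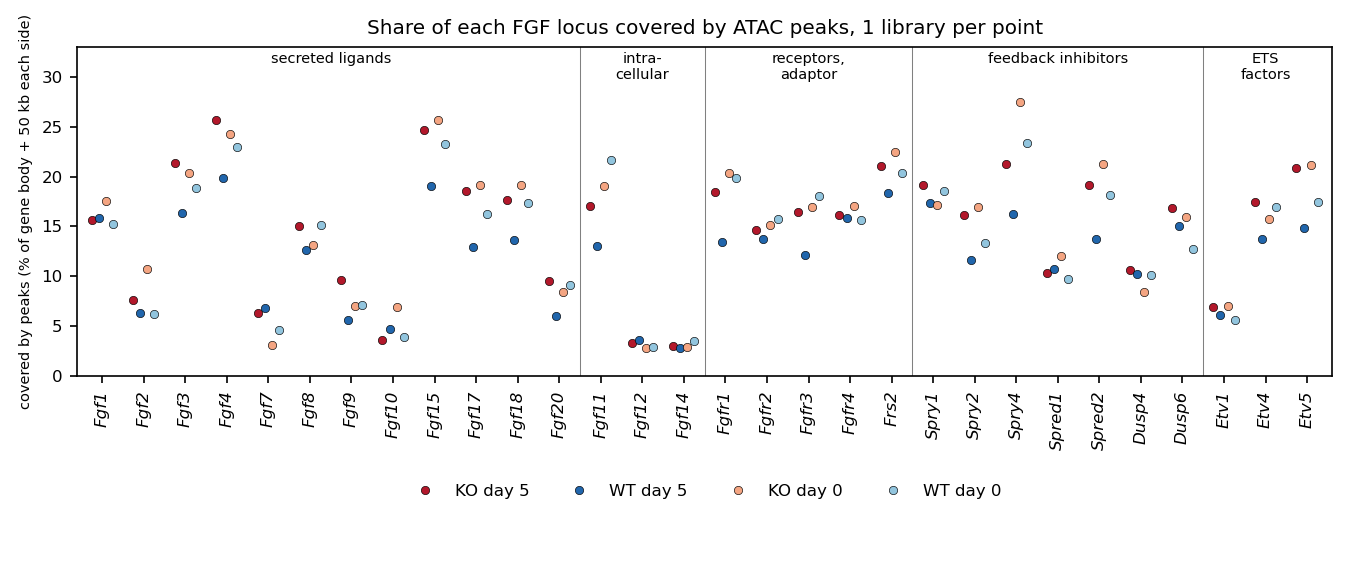
Percent of each FGF locus (gene body plus 50 kb on each side) covered by peaks, with 1 point per library and genes grouped by role. The share runs from 2.77% at Fgf14 in WT at day 5 to 27.5% at Spry4 in KO at day 0, and the WT day 5 point is the lowest of the 4 at many loci.

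Covered length was compared between libraries as the log2 ratio of covered bp in a locus, with 500 bp added to each value. The median ratio over 20806 protein-coding genes was then subtracted, so that 0 is the median locus of that comparison. Those medians were 0.11 for KO against WT at day 0, 0.31 for KO against WT at day 5, -0.22 for day 5 against day 0 in WT and -0.03 for day 5 against day 0 in KO. A locus is called higher or lower below when it passes 0.5 or -0.5, a 1.41-fold difference. This is a threshold of size and not a test.

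In KO against WT at day 0, 2 of 30 members were higher (Fgf10 by 0.68 and Fgf2 by 0.65) and 1 was lower (Fgf7, -0.61). Over all genes 6.15% were higher and 3.9% lower. In KO against WT at day 5, no member was higher, where 9.86% of all genes were, and 1 was lower (Fgf10, -0.68), where 5.72% were. In day 5 against day 0 in WT, 2 members were higher (Fgf7 by 0.76 and Fgf12 by 0.51) and none was lower, against 12.1 and 8.82% of all genes. In day 5 against day 0 in KO, 1 was higher (Fgf7, 0.97) and 1 lower (Fgf10, -0.89), against 9.54 and 3.76%. The members lay on both sides of the median locus each time, with 16 above and 14 below, 15 and 15, 16 and 14, and 14 and 16 in this order of comparisons. Their medians were 0.01, -0.0026, 0.02 and -0.02. The comparisons share libraries and are not independent of each other.

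In all, 4 members passed the threshold in any comparison and 26 in none. Fgf12 lay just inside it (0.51), and Fgf11 (-0.48 in WT), Dusp6 (0.46 in WT) and Fgf9 (0.46 in KO) lay just outside, all for day 5 against day 0. The steadiest loci were Fgf15, Fgf3, Fgf4, Frs2 and Fgf18, with no ratio larger than 0.06, 0.09, 0.11, 0.11 and 0.12 in size. The loci of Fgf3, Fgf4 and Fgf15 overlap on chromosome 7 and share peaks, so they count as 1 stretch of DNA rather than 3.

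**Figure D2:**
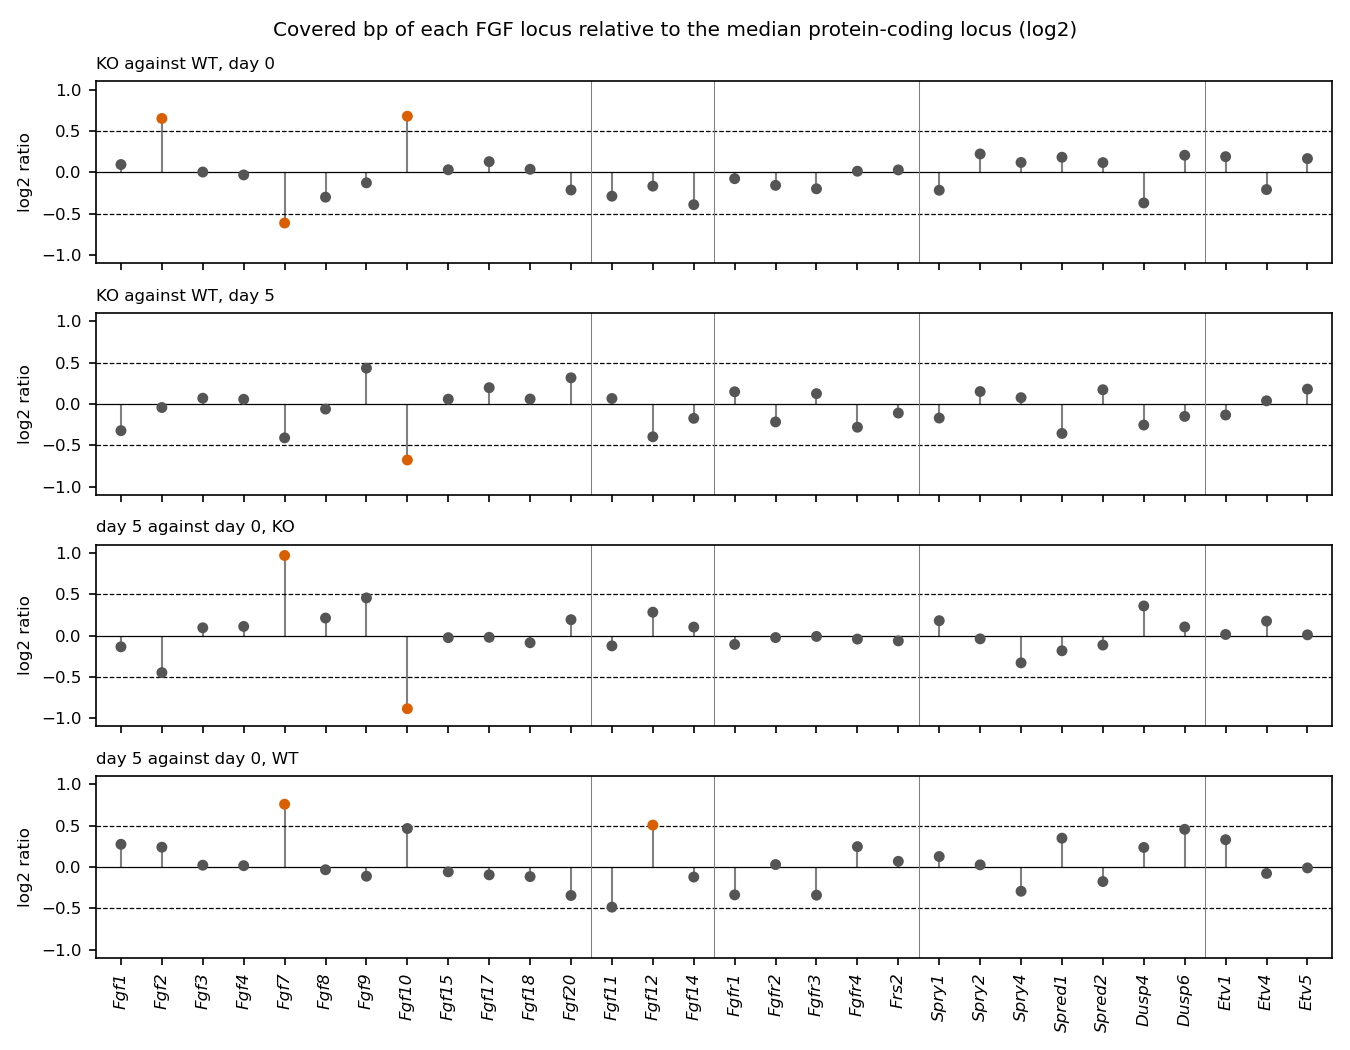
Log2 ratio of covered bp at each FGF locus relative to the median protein-coding locus, in 4 panels of 1 comparison each. Dashed lines mark 0.5 and -0.5, and orange points are members past them (Fgf2, Fgf7, Fgf10 and Fgf12). Most members lie between the lines in every panel.

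Among the secreted ligands, Fgf10, a signal from mesenchyme to epithelium in lung and limb buds (chr13:118714699-118792573), differed most between the genotypes' courses. Its locus had 6337 bp covered in KO at day 5, 8351 bp in WT at day 5, 12386 bp in KO at day 0 and 6969 bp in WT at day 0. KO at day 0 was thus the highest library and KO at day 5 the lowest. These lengths came from 7 peaks in KO at day 5, 10 in WT at day 5, 15 in KO at day 0 and 8 in WT at day 0. With the peaks of each library taken as independent counts, the log2 ratio of peak numbers had wide 95% intervals. They were -2.60 to 0.32 for day 5 against day 0 in KO and -0.52 to 2.26 for KO against WT at day 0. Some regions were listed in both libraries compared, which these intervals leave out of account. The peak over the Fgf10 start was listed in all 4 libraries (839 bp in KO at day 5, 774 bp in WT at day 5, 832 bp in KO at day 0 and 795 bp in WT at day 0 within 1 kb), so the differences lay elsewhere in the locus. Regions at chr13:118705491-118706373, centred at -8.77 kb from the Fgf10 start, and chr13:118733298-118734187 in the gene body were listed at day 0 in both genotypes and at day 5 in neither. The Fgf10 locus contains no other protein-coding gene. Of the fibroblast loci, 5 of 10 were lower in KO than in WT at day 5, as Fgf10 was, against 5.72% of all genes. For KO against WT at day 0 their median ratio was 0.22, where Fgf10 had 0.68. For day 5 against day 0 in KO it was -0.03, with 1 of 10 higher and 0 lower, where Fgf10 had -0.89. Their part in the Fgf10 values was not tested.

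Fgf2 encodes the ligand that was also added to the day 5 medium (chr3:37348477-37410106). Its locus had 12302 bp covered in KO at day 5, 10172 bp in WT at day 5, 17330 bp in KO at day 0 and 10031 bp in WT at day 0, so KO at day 0 was again the highest. It held 20 peaks in KO and 11 in WT at day 0, and the 95% interval of that log2 ratio was -0.36 to 1.98. At its start, chr3:37348653 on the plus strand, a single peak covered 928 bp in KO at day 5, 933 bp in WT at day 5 and 791 bp in KO at day 0, and 0 bp in WT at day 0. The 3 peaks nearly coincide, at chr3:37348416-37349343, chr3:37348313-37349245 and chr3:37348291-37349081. They span the single GC box of the Fgf2 upstream stretch shown above. Of 23 regions joined across libraries, 8 were listed in all 4, 6 in KO at day 0 alone and none in WT at day 0 alone. Over all loci 36.0% of regions were listed in all 4 libraries, 7.92% in KO at day 0 alone and 4.95% in WT at day 0 alone. The fibroblast loci above also had more covered bases in KO than in WT at day 0, and their part in the Fgf2 value was not tested.

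Fgf7, a ligand that mesenchyme sends to epithelium (chr2:126034658-126091185), had few covered bases at day 0 and the highest day 5 against day 0 ratio of the members in both genotypes. Covered length was 9870 bp in KO and 10650 bp in WT at day 5, against 4905 bp in KO and 7173 bp in WT at day 0. Both day 5 libraries were thus above both day 0 libraries. Peak numbers were 11 in KO at day 5 and 6 in KO at day 0 (95% interval of the log2 ratio -0.65 to 2.63), and 12 in WT at day 5 and 8 in WT at day 0 (-0.60 to 2.31). The start of Fgf7 went the other way from its locus. Within 1 kb of it, peaks covered 23 bp in KO and 77 bp in WT at day 5, against 1105 bp in KO and 929 bp in WT at day 0. A peak over the start itself was listed at chr2:126034089-126035066 in KO at day 0 and chr2:126034184-126034961 in WT at day 0, and in neither library at day 5. A second peak further upstream was present in all 4 libraries, centred at -1.34 kb from the Fgf7 start. At day 5 in both genotypes, further regions were listed at chr2:126064317-126065498 in the gene body and at chr2:126128488-126129430 beyond it. Both overlap the gene Fam227b, as does the day 0 region over the Fgf7 start. No covered base of the Fgf7 locus lay more than 1 kb from another protein-coding gene, so its peaks cannot be assigned to Fgf7 alone. The fibroblast loci had a median day 5 against day 0 ratio (log2) of -0.03 in KO and 0.50 in WT, and among them Lum had 0.51 in KO and 1.69 in WT. Their part in the Fgf7 values was not tested.

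**Figure D3:**
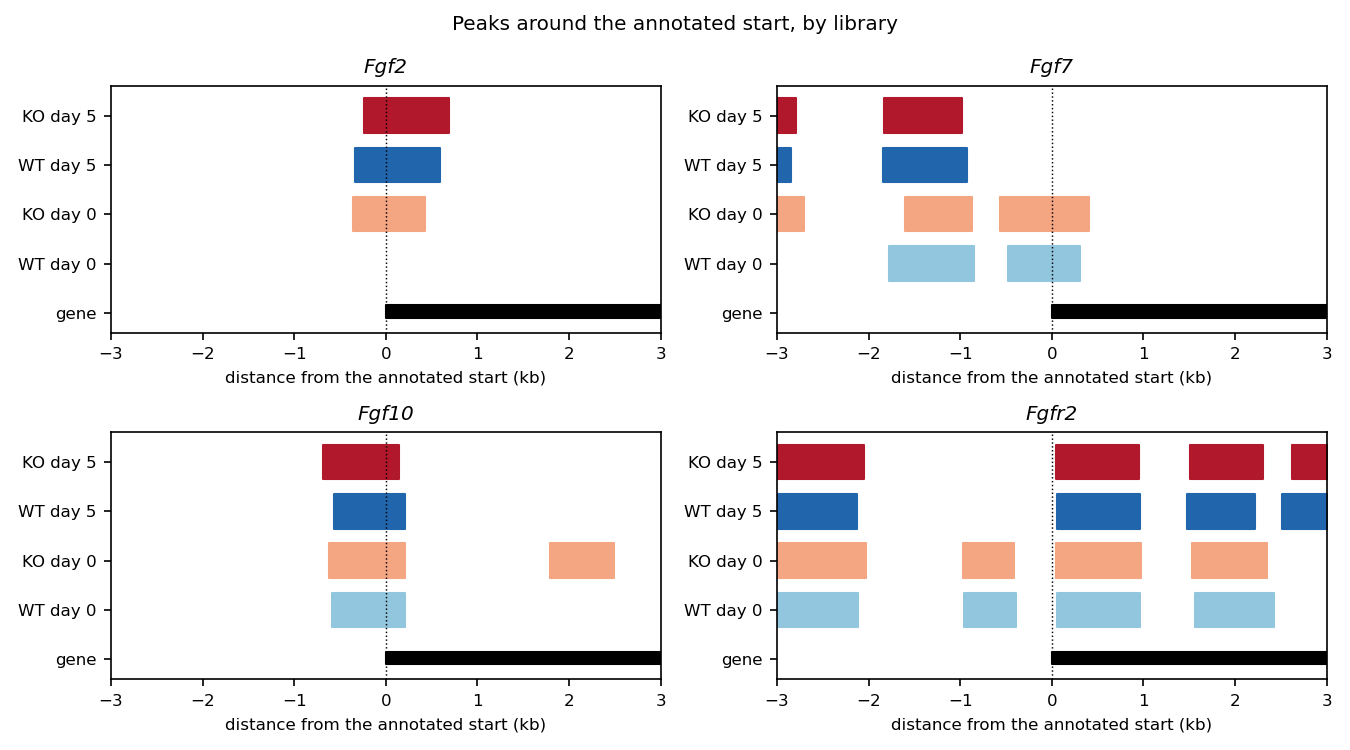
Peaks within 3 kb of the annotated start of Fgf2, Fgf7, Fgf10 and Fgfr2, with 1 line per library. The horizontal axis is the distance from the start in kb along the gene's direction and the black bar is the gene. Fgf2 lacks its start peak in WT at day 0, Fgf7 has one over the start at day 0 only, Fgf10 has one in all 4 libraries, and Fgfr2 has an upstream peak at day 0 only.

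Fgf4, the ligand that mouse stem cells themselves make (chr7:144861386-144865245), had 26684 bp covered in KO at day 5, 20649 bp in WT at day 5, 25196 bp in KO at day 0 and 23871 bp in WT at day 0. The peak over its start covered 841 bp in KO at day 5, 837 bp in WT at day 5, 879 bp in KO at day 0 and 876 bp in WT at day 0, and differed little between libraries. A second region in all 4 libraries, chr7:144863998-144864995, lies 3.11 kb from the start at the 3′ part of the gene. Fgf4 is known to be driven in stem cells by an enhancer in its 3′ untranslated region that OCT4 and SOX2 bind, and whether this peak holds that enhancer was not determined here. Close to Fgf4 but outside it, chr7:144868488-144869414 was listed in KO only at both days, chr7:144875008-144875675 at day 5 only in both genotypes, and chr7:144857762-144858324 at day 0 only in both.

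Fgf8, which patterns the mid-hindbrain boundary and the forebrain, had 15966 bp covered in KO at day 5, 13405 bp in WT at day 5, 14006 bp in KO at day 0 and 16082 bp in WT at day 0. Both ends of the Fgf8 gene were covered in every library, by 831, 957, 813 and 823 bp at the high-coordinate end and 822, 811, 804 and 772 bp at the other, in that order of libraries. Fgf15, an early neural and gut ligand in mouse, had 25777 bp in KO at day 5, 19920 bp in WT at day 5, 26788 bp in KO at day 0 and 24284 bp in WT at day 0. Its ratios were all within 0.06 of the median locus, so its spread in bp was close to that of the median locus. Fgf9, a ligand of gonad and lung development, and Fgf20, its close relative, were highest in KO at day 5 and lowest in WT at day 5. Fgf9 had 13640 bp in KO and 7970 bp in WT at day 5, and 10022 bp in KO and 10163 bp in WT at day 0. Fgf20 had 10242 bp in KO and 6478 bp in WT at day 5, and 9095 bp in KO and 9828 bp in WT at day 0. Neither passed the threshold, with ratios for KO against WT at day 5 of 0.43 for Fgf9 and 0.32 for Fgf20. Fgf1, Fgf3, Fgf17 and Fgf18 stayed within 0.32 of the median locus in every comparison.

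Of the FGFs that remain inside the cell, Fgf12 (chr16:28157783-28753243) had 23262 bp in KO at day 5, 24823 bp in WT at day 5, 19433 bp in KO at day 0 and 20265 bp in WT at day 0. The day 5 libraries were both above the day 0 libraries, with a ratio of 0.28 in KO and of 0.51 in WT, where it passed the threshold. Peak numbers in WT were 29 at day 5 and 24 at day 0, with a 95% interval of -0.33 to 1.35. Of 44 regions at Fgf12, 11 were listed in WT at day 5 alone, a pattern that 7.81% of the regions over all loci had. Its gene body is far longer than that of most genes. With only 100 kb around its outermost start counted, the WT ratio was -0.37, on the other side of 0. The other annotated starts of Fgf12 lie outside that window. Fgf14 and Fgf11 lay below the median locus in KO against WT at day 0 (-0.39 and -0.29). The Fgf11 window holds 12 other protein-coding genes, so its peaks cannot be assigned to Fgf11.

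None of Fgfr1, Fgfr2, Fgfr3, Fgfr4 and the adaptor gene Frs2 passed the threshold, and their ratios lay between -0.34 and 0.25. Fgfr1, the main receptor for FGF4 in stem cells, had 28989 bp covered in KO at day 5, 21043 bp in WT at day 5, 31911 bp in KO at day 0 and 31221 bp in WT at day 0. At one end of the Fgfr1 gene 756 bp were covered in KO at day 5, 746 bp in WT at day 5, 801 bp in KO at day 0 and 795 bp in WT at day 0. At the other end 933, 886, 971 and 1539 bp were covered in the same order.

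Fgfr2, a receptor gene with separate epithelial and mesenchymal splice forms (chr7:130162451-130266808, minus strand), had 29909 bp in KO at day 5, 28107 bp in WT at day 5, 31051 bp in KO at day 0 and 32160 bp in WT at day 0. Within 1 kb of its start were 908 bp in KO and 908 bp in WT at day 5, against 1470 bp in KO and 1482 bp in WT at day 0. The difference was a separate region at chr7:130267201-130267772, centred at -0.68 kb from the Fgfr2 start, which was listed at day 0 in both genotypes and at day 5 in neither. The peak just inside the gene was present in all 4. In the gene body, chr7:130263402-130264294 was listed at day 5 only, again in both genotypes. Across the Fgfr2 locus, 5 of 58 regions were listed at day 5 only and 6 at day 0 only, in both genotypes each time. These patterns made up 4.48 and 6.01% of the regions over all loci.

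Fgfr3, expressed in neural progenitors and cartilage, had 19002 bp in KO at day 5, 13972 bp in WT at day 5, 19546 bp in KO at day 0 and 20860 bp in WT at day 0. Fgfr4, the receptor through which FGF15 acts in liver, had 18741 bp in KO at day 5, 18422 bp in WT at day 5, 19721 bp in KO at day 0 and 18090 bp in WT at day 0. Frs2 had the most peaks of this group (45 in KO at day 5, 39 in WT at day 5, 49 in KO at day 0 and 44 in WT at day 0), and no ratio above 0.11 in size.

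The feedback inhibitors, which ERK activity induces in many cell types, had a peak within 1 kb of their starts in all 4 libraries, and none passed the threshold. Spry1 had 20029 bp covered in KO at day 5, 18191 bp in WT at day 5, 17991 bp in KO at day 0 and 19446 bp in WT at day 0. Spry2 had 16908 bp in KO at day 5, 12191 bp in WT at day 5, 17762 bp in KO at day 0 and 14026 bp in WT at day 0, with both KO libraries above both WT libraries. Relative to the median locus the Spry2 difference was 0.15 at day 5 and 0.22 at day 0. Spry4 had 24524 bp in KO at day 5, 18705 bp in WT at day 5, 31604 bp in KO at day 0 and 26926 bp in WT at day 0. The day 5 ratio of Spry4 was -0.33 in KO and -0.29 in WT, below the median locus in both genotypes. Dusp6, the phosphatase gene that acts on ERK itself, had 17534 bp in KO at day 5, 15696 bp in WT at day 5, 16615 bp in KO at day 0 and 13261 bp in WT at day 0. The WT day 0 library was lowest at Dusp6, and the day 5 ratio was 0.10 in KO and 0.46 in WT. Dusp4, a nuclear relative, had ratios of 0.36 in KO and 0.24 in WT. Spred1 and Spred2, which hold back RAS signalling, stayed within 0.36 and 0.17 of the median locus.

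The ETS factor genes, transcriptional targets of ERK, lay close to the median locus, with ratios between -0.21 and 0.33. Etv5 (chr16:22381313-22439570) had 33088 bp covered in KO at day 5, 23493 bp in WT at day 5, 33562 bp in KO at day 0 and 27672 bp in WT at day 0. Both KO libraries were above both WT libraries, and the KO to WT ratios relative to the median locus were 0.18 at day 5 and 0.17 at day 0. Etv4 had 20218 bp in KO at day 5, 15826 bp in WT at day 5, 18227 bp in KO at day 0 and 19582 bp in WT at day 0. At the accessible end of Etv4 a small region, chr11:101784396-101784801, was listed in KO at both days and in WT at neither. Etv1 had 13152 bp in KO at day 5, 11618 bp in WT at day 5, 13303 bp in KO at day 0 and 10732 bp in WT at day 0.

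Peaks were joined across libraries wherever they overlapped by at least 1 bp, which gave 989 regions over the FGF loci and 266329 over all protein-coding loci. In the FGF loci 39.4% of regions were listed in all 4 libraries (95% exact binomial interval 36.4 to 42.6), against 36.0% (35.8 to 36.2) in all loci. Within 1 kb of a member's start the share was 83.7% of 49 regions, against 76.2% of 21680 regions at the starts of all genes. Elsewhere it was 37.1% of 940 regions, against 32.4%. Over the 3 libraries other than WT at day 5 the shares were 53.5% and 48.9%. Regions listed in KO only at both days made up 2.63% of FGF regions (26 regions) and 3.66% of all, those in WT only 0.71% (7 regions) and 0.86%. Regions listed at day 5 only in both genotypes made up 3.54% (35 regions) and 4.48%, and those at day 0 only 6.77% (67 regions) and 6.01%. The intervals cover counting error only.

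**Figure D4:**
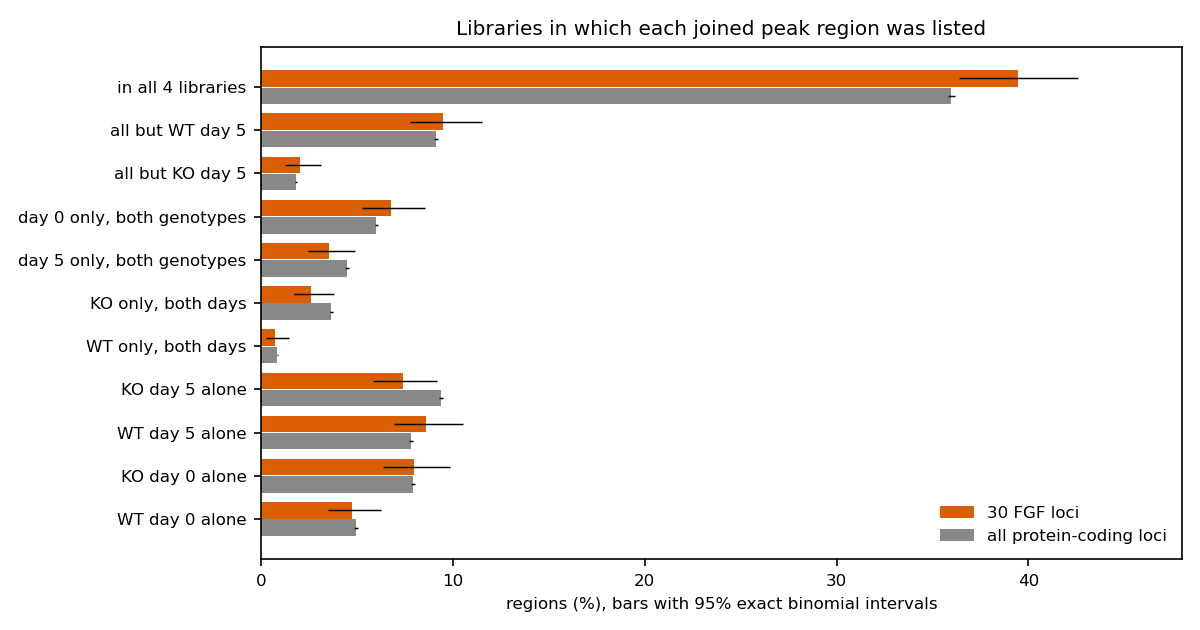
Share of joined peak regions by the libraries that listed them, for the 30 FGF loci (orange, 989 regions) and all protein-coding loci (grey, 266329 regions), with 95% exact binomial intervals. The 4 remaining combinations of libraries are not drawn. FGF regions were listed in all 4 libraries in 39.4% of cases, against 36.0% of all regions.

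Of the regions present at day 0 in both genotypes, more were still listed at day 5 in KO than in WT, at the FGF loci as at all others. There were 571 such FGF regions, of which 484 were still listed in KO at day 5 (84.8%, 81.5 to 87.6) and 410 in WT at day 5 (71.8%, 67.9 to 75.5). Over all protein-coding loci the shares were 85.2% in KO and 71.4% in WT. The FGF shares were thus close to those of all loci, and the WT day 5 list was the shorter one as a whole. By role, the ETS factor loci kept 94.9% of 59 regions in KO and 69.5% in WT, and the feedback inhibitors 85.9% of 142 in KO and 71.1% in WT. The receptors and adaptor kept 82.1% of 140 regions in KO and 71.4% in WT, the secreted ligands 84.3% of 166 in KO and 74.1% in WT, and the intracellular FGFs 79.7% of 64 in KO and 70.3% in WT.

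Etv5 had the most regions kept at day 5 in KO only. Of 29 regions listed at day 0 in both genotypes, 28 were listed in KO at day 5 and 18 in WT at day 5. Among these, 10 (34.5%, 95% interval 17.9 to 54.3) were kept in KO only and none in WT only, against 16.5% kept in KO only over the FGF loci and 17.2% over all loci. Etv5 was singled out after its values were seen. Of 7437 protein-coding loci with at least 20 such regions, 149 (2.00%) had as high a share. The 10 regions include chr16:22435917-22436918, centred 1.95 kb inside the Etv5 gene, and chr16:22449185-22450115, centred at -10.1 kb, upstream of it, and 3 of them lie within the neighbouring gene Dgkg. The start region of Etv5 was kept in all 4 libraries (1140 bp in KO at day 5, 1136 bp in WT at day 5, 1149 bp in KO at day 0 and 1171 bp in WT at day 0). Fgf10 was the only member with more of them kept in WT, with 3 of 8 regions listed in KO at day 5 and 5 in WT at day 5.

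**Figure D5:**
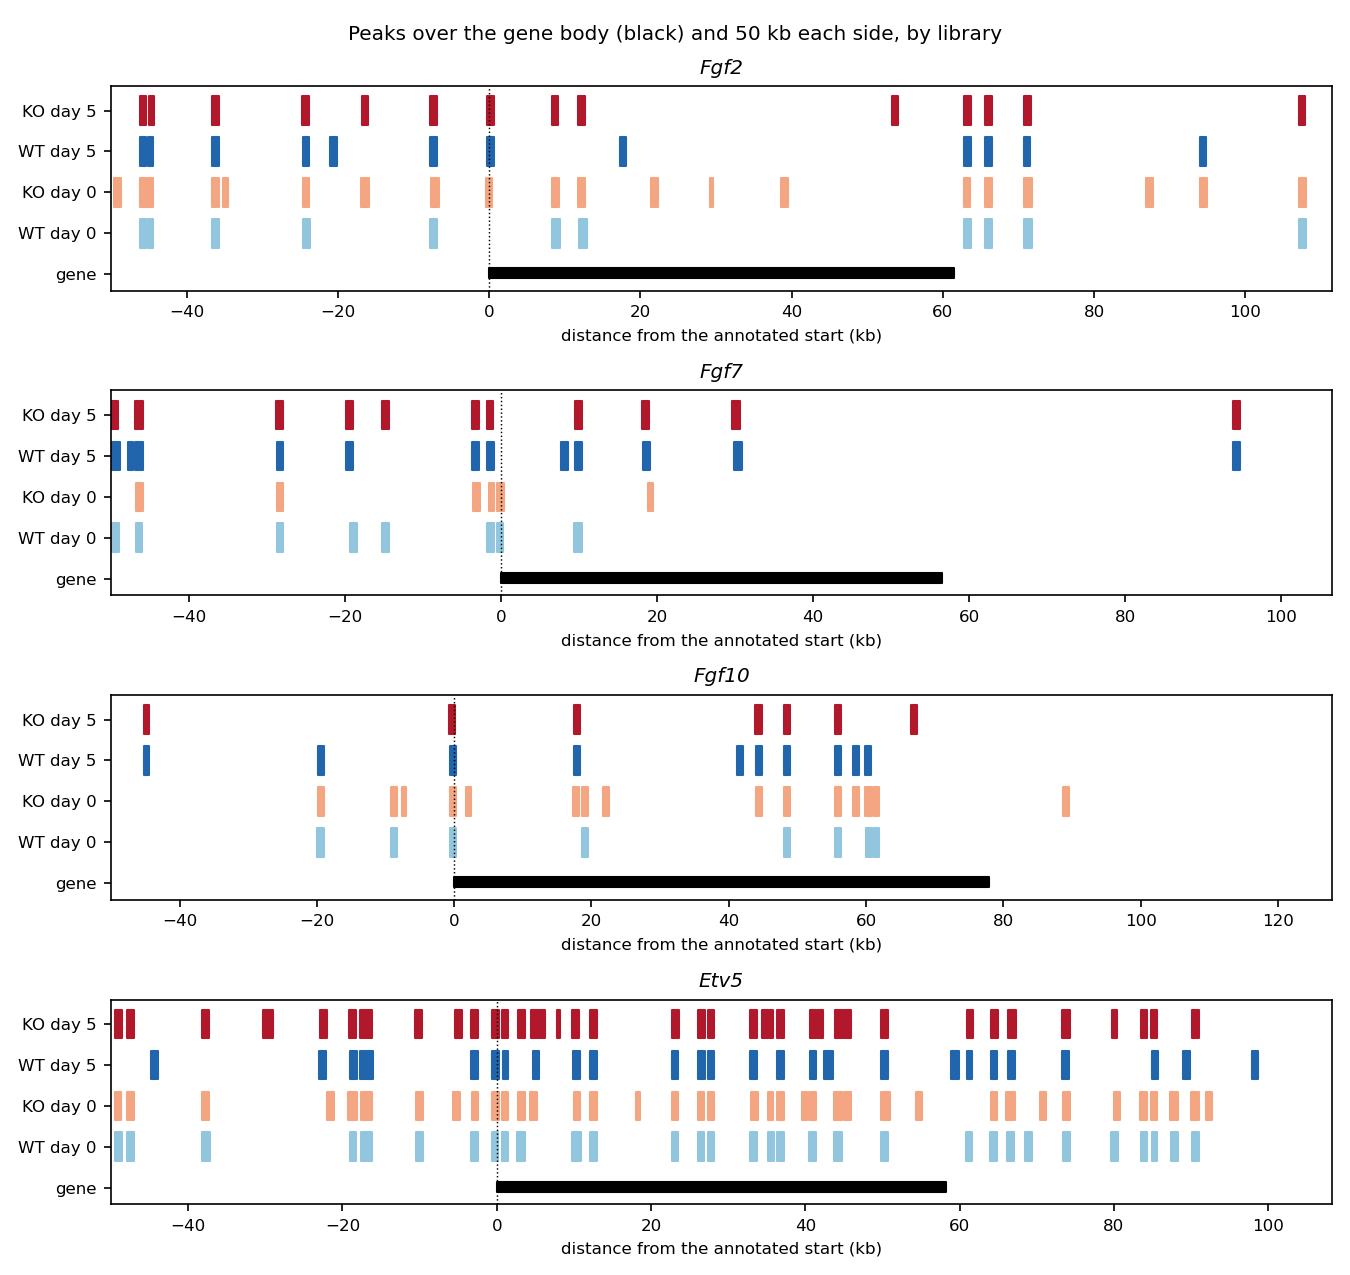
Peaks over the loci of Fgf2, Fgf7, Fgf10 and Etv5 in each library, along the distance from the annotated start in kb in the gene's direction, with the gene body in black. Fgf10 has 7 peaks in KO at day 5 and 15 in KO at day 0, and the Etv5 locus has 40 peaks in KO and 27 in WT at day 5.

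The rest of the pathway was read from a list of 60 further genes. Of these, 1 was higher in KO than in WT at day 0 (Fgf13) and 1 lower (Flrt3), where 6.15 and 3.9% of all genes were. At day 5 there were 2 higher in KO (Gpc3 among them) and 3 lower (Egfr, Flrt2 and Flrt3), against 9.86 and 5.72% of all genes. For day 5 against day 0, 6 were higher in WT (Egfr, Ext2, Fgf13, Fgf5, Flrt2 and Flrt3) and 2 lower (Nras among them), against 12.1 and 8.82% of all genes. In KO 2 were higher (Egfr and Flrt3) and 2 lower (Fgfrl1 and Flrt2), against 9.54 and 3.76%. The list's medians were 0.02 for KO against WT at day 0, 0.0040 at day 5, 0.01 for day 5 against day 0 in WT and -0.06 in KO. Egfr, the receptor for the EGF in the day 5 medium, had day 5 against day 0 ratios of 0.52 in KO and 1.26 in WT. Fgf5, a marker of the step out of naive pluripotency, passed the threshold in WT for day 5 against day 0. A start peak was listed for 59 of the 60 genes in KO at day 5, 60 in WT at day 5, 59 in KO at day 0 and 57 in WT at day 0.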

How the data were processed

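Chromatin accessibility was measured by single-nucleus ATAC-seq in 4 libraries, 1 per group. The authors deposited a peak list for each, with peak positions (start and end in bp) as its other columns beside the chromosome, and no signal values. Peak calling was done separately for every library by cellranger-arc 2.0.0 with the 2020-A reference of mm10, per the file headers. Cell Ranger ARC 2.0.0 and Scanpy 1.7.2 are named in the submitters' processing notes, as is the build mm10. Depth per library and any doublet removal are not given in the sources used here, so peak number and covered length stand in for depth. The RNA of the same nuclei was not analysed here.

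Gene positions came from a RefSeq table of GRCm38.p6, whose chromosome coordinates are those of mm10, and starts and strands from a RefSeq promoter table (17492 genes with a start, 4395 without). Covered bp were counted in the gene body plus 50 kb each side, and start peaks within 1 kb. Ratios used a pseudocount of 500 bp and were centred on the median of 20806 genes with covered bases. Intervals of peak-number ratios are exact binomial ones at 95%, centred in the same way. They cover only the error of independent counts, although many regions are listed in both libraries compared. The counting code was tested on simulated peaks with Python 3.11.15, numpy 2.4.6, pandas 2.3.3 and scipy 1.17.1.

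All members are accounted for. Values per library are given for members past 0.5 in any comparison, members with a start peak in some libraries only, and 14 members fixed by role, and values of others were chosen after being seen. Regions named one by one are mainly those nearest a start that were listed in 1 genotype or 1 day. The members and all gene lists were chosen with earlier results of these data known. Alternatives changed the window, pseudocount, measure, peak number, neighbouring genes, centring and minimum coverage. The values of 1 gene of the further pathway list are not reported here.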

Additional observations from a re-analysis of the deposited data

Results flagged for a closer look

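At 5 loci the day 5 against day 0 ratio had opposite signs in KO and WT and differed between them by more than 0.5 (log2 covered bp, each relative to its own median locus). How many of all protein-coding loci meet this rule was not counted, so the 5 cannot be read as particular to the FGF genes. At Fgf10 the KO ratio was -0.89 and the WT ratio 0.47, a difference of -1.35. At Fgf2 they were -0.45 in KO and 0.24 in WT, a difference of -0.69. At Spred1 they were -0.18 in KO and 0.35 in WT, a difference of -0.53. At Fgf9 they were 0.46 in KO and -0.11 in WT, a difference of 0.57, and at Fgf20 0.19 in KO and -0.34 in WT, a difference of 0.54. With 1 library per group these differences were not tested, and each rests on WT at day 5, the library with peaks at the starts of Y-linked genes.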

How the results depend on the processing

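With 1 library per group, replicates cannot be left out. No paired analysis was possible because each group held 1 library. The start-peak counts stayed within 1.5 times of the reported ones under every alternative run for them. They fell to between 21 and 23 members when a peak had to lie over the start base. Fgf9, Fgf11, Fgfr2 and Spry2 had no such peak in any library. The share of all genes with a peak over the start base was not counted, so these counts cannot be set against it. Counts of members past 0.5 are small and moved often, and the cause was not tested. Listed below are mainly those that changed by more than 1.5 times, or to or from 0. The share of all genes past 0.5 in the same setting follows in brackets. A count can also stay while its genes change.

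With a flank of 10 kb, 1 member was higher and 0 lower in KO against WT at day 0 (9.73 and 5.46%). In KO against WT at day 5, 2 were higher and 2 lower (14.1 and 9.15%). In day 5 against day 0 in WT, 5 were higher and 4 lower (14.3 and 14.2%). In KO 3 were lower (9.5%), and the 1 higher was Fgf20 in place of Fgf7 (11.1%). With 100 kb around the start, 2 were lower in KO against WT at day 0 (4.88%), and 3 were higher, with Spred1 added (7.48%). In KO against WT at day 5, 1 was higher (11.4%). At day 5 in WT 1 was lower (10.1%), and at day 5 in KO 2 were lower (4.99%). With a pseudocount of 2000 bp, 1 was higher at day 5 in WT (10.2%). By peak number, 0 were lower in KO against WT at day 0 (4.02%). With the widest peaks in equal numbers, 1 was higher and 2 lower in KO against WT at day 0 (6.5 and 4.78%). In KO against WT at day 5, 2 were higher (11.3%), and the 1 lower was Fgfr4 in place of Fgf10 (6.26%). At day 5 in WT 1 was higher and 1 lower (12.1 and 9.14%). At day 5 in KO 3 were higher and 0 lower (10.0 and 5.02%). Without peaks near other genes 28 members could be measured, and Fgf7 was not among them. In KO against WT, 0 were lower at day 0 (6.4%), and 1 was higher at day 5 (Fgf11, 14.1%). At day 5 in WT 0 were higher and 1 lower (14.4 and 15.1%), and in KO 0 were higher (11.8%). Centring on total covered bp puts the median locus at -0.17 for day 5 in WT. There 1 was higher and 4 lower (8.58 and 16.6%), and at day 5 in KO 2 were lower (5.86%). A pseudocount of 100 bp and a minimum of 5000 bp moved no count by more than 1.5 times. The share of FGF regions listed in every library was 53.5% over the 3 libraries other than WT at day 5, an alternative added after the data were seen.

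Of the named ratios, Fgf7 in KO against WT at day 0 was 0.13 with a flank of 10 kb, and Fgf12 at day 5 in WT was -0.37 with 100 kb around its outermost start, both on the other side of 0. Fgf12 stayed past 0.5 in 3 of 9 alternatives. Fgf10 stayed past it in 8 of 9 in each of its comparisons, and Fgf2 in 8 of 9. Fgf7 did in 8 of 8 at day 5 in WT, 7 of 8 at day 5 in KO and 6 of 8 in KO against WT at day 0. Its alternatives are 8 because it could not be measured without peaks near other genes.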

Other observations

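Loci of 6 primitive endoderm genes, a lineage that FGF4 signalling promotes in the early embryo, had a median day 5 against day 0 ratio of 0.32 in KO and 0.34 in WT (log2 covered bp). Of these 6, Pdgfra was also on the list of feeder fibroblast genes (0.0029 in KO and 0.30 in WT). In KO 2 of 6 passed 0.5 (Foxa2 and Sox17), and in WT 2 of 6 did (Foxa2 and Sox7), against 9.54 and 12.1% of all genes. Loci of 10 neural progenitor genes had medians of 0.26 in KO and 0.27 in WT, with none past 0.5. Loci of 10 embryonic stem cell genes had medians of -0.06 in KO and -0.16 in WT, with Zfp42 past -0.5 in WT.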
